A study of Homo sapiens with 16 samples.

Results

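The 45 genes described here copy DNA or prepare the cell for copying it, and were taken as a fixed list of symbols. They comprise 6 MCM helicase subunits, 10 factors that load or activate that helicase, and 14 polymerase, clamp and single-strand binding proteins. The others are 6 enzymes grouped as nucleotide supply, 5 G1/S cyclins, E2F factors and SKP2, and 4 proteins of chromatin and histone supply. UNG, in the nucleotide supply group, removes uracil from DNA. Each gene was represented by its brightest detected probe, separately in each of 2 array sets. In the DHT set, 38 of the 45 genes were tested among 9028 genes in all. ORC1, CDC6, GINS1, CCNE2, E2F1 and CHAF1A had a probe that was not detected on at least 2 arrays, and CHAF1B had no probe of 1 symbol. In the DEX set 42 of the 45 were tested among 10999 genes, and CDC6, GINS1 and CCNE2 were not detected often enough. Detection on all 8 arrays held for 27 of the 38 and for 36 of the 42.

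Total RNA came from LNCaP-1F5, a subline of LNCaP, a human prostate cancer line with its own androgen receptor, to which a rat glucocorticoid receptor was added. All cells spent 3 days in charcoal-stripped medium, which is low in steroids, before 24 hours of treatment. The DHT set, on version 3 of the Illumina HumanHT-12 array, has 4 titled groups of 2 arrays: siFoxA1 cells with 100 nM dihydrotestosterone (DHT, an androgen), parental cells with 100 nM DHT, siFoxA1 cells with vehicle and parental cells with vehicle. The DEX set, on version 4, has the same 4 titled groups with 100 nM dexamethasone (DEX, a synthetic glucocorticoid) in place of DHT. Cells titled siFoxA1 received an siRNA pool against FOXA1, a pioneer factor that opens chromatin for the androgen receptor, and the labels describe no control siRNA for cells titled parental. Replicates 1 and 2 are described as biological duplicates, and 2 arrays per titled group limit the precision of each value. Levels are log2 intensities with an offset of 16, and they are comparable between arrays of a set but not between probes or sets.

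Eukaryotic cells license origins of replication in G1, when the origin recognition complex (ORC), CDC6 and CDT1 load the MCM2 to MCM7 ring as an inactive helicase. At the start of S phase CDC45 and the GINS complex join the ring. The polymerases, tethered by the clamp PCNA, copy the strands, and ribonucleotide reductase and thymidylate synthase supply the building blocks. Many of these genes are transcribed together from late G1 by E2F factors once cyclin-dependent kinases inactivate the retinoblastoma proteins. In prostate epithelium and its tumours, androgens act on both proliferation and differentiation through the androgen receptor, with FOXA1 as a partner.

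The check of the titles came first, because each title names an siRNA and a hormone. In the DHT set FOXA1 was at 12.37, 12.25, 12.28 and 12.24 on the DHT-titled arrays, against 13.68, 13.61, 13.57 and 13.54 on the vehicle-titled ones, in the order siFoxA1 replicate 2, parental replicate 2, siFoxA1 replicate 1 and parental replicate 1. The DHT-titled and vehicle-titled arrays did not overlap (difference -1.31 ± 0.08 on the log2 scale, ± SE, adjusted p = 0.000507), whereas the difference by siFoxA1 title was 0.06 ± 0.08. FKBP5, which androgens and glucocorticoids induce, was instead 4.58 ± 0.19 higher in replicate 2 than in replicate 1 of that set. In the DEX set FOXA1 was at 10.84, 10.84, 12.17 and 12.09 on the replicate 2 arrays, against 12.67, 12.65, 13.37 and 13.36 on the replicate 1 arrays, in the order DEX siFoxA1, vehicle siFoxA1, DEX parental and vehicle parental, and FKBP5 was 4.55 ± 0.09 higher on the siFoxA1-titled arrays. The targeted gene and the hormone-induced gene therefore do not follow the titles that name them in either set, apart from differences within replicate numbers. FOXA1 was lower under the siFoxA1 title within each replicate number of the DEX set. In replicate 2 of the DHT set FKBP5 was 12.97 and 13.16 under DHT titles (siFoxA1, parental), against 12.14 and 12.15 under vehicle titles. In replicate 1 FKBP5 was 7.76 and 8.21 against 8.22 and 7.91, in the same order. Groups are called by their titles throughout, each direction is one between titles or replicate numbers, and no array was moved. Of the markers of prostate luminal epithelium 8, such as KRT8, KRT18 and HOXB13, were kept in both sets, 7 of them detected on all 8 arrays. The basal markers KRT5, KRT14 and TP63 were not kept. Of 7 fibroblast markers VIM was kept in the DHT set, with COL1A1 also kept in the DEX set. Of 5 blood markers CD68 was kept in both, with HBB and HBA2 in the DEX set, and of 3 endothelial markers VWF was kept in the DHT set only.

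Promoters of genes that were lower in each of the 3 comparisons with most calls are shown because many of them hold the letters that E2F factors read. Windows run from 250 bases before to 50 bases after each gene's start in RefSeq (build GRCh38.p14), and 39 of the 45 genes had one. The 8-letter spellings searched on both strands were TTTCGCGC, TTTGGCGC, TTTCCCGC and TTTGCCGC, and capitals mark each match, on whichever strand it reads. Of the 39 windows 19 held at least 1 match (48.7%), against 908 of all 27305 windows (3.3%). MCM2 lies at chr3:127598161-127598460 (+ strand), MCM6 at chr2:135876394-135876693 (- strand), MCM7 at chr7:100101348-100101647 (- strand), GINS2 at chr16:85688905-85689204 (- strand), UHRF1 at chr19:4909251-4909550 (+ strand) and CDC45 at chr22:19479670-19479969 (+ strand). CDC45 is printed as a gene with large differences in both sets whose window holds none of these spellings. Only these spellings were searched, and the CDC45 window does hold tttggcgg, which differs from TTTGGCGC in its last letter.
MCM2: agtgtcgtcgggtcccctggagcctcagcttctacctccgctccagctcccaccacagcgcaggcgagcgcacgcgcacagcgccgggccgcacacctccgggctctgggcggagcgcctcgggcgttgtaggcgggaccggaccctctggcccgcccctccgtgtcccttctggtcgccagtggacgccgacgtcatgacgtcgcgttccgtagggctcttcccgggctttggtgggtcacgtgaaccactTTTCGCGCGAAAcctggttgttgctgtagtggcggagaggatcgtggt
MCM6: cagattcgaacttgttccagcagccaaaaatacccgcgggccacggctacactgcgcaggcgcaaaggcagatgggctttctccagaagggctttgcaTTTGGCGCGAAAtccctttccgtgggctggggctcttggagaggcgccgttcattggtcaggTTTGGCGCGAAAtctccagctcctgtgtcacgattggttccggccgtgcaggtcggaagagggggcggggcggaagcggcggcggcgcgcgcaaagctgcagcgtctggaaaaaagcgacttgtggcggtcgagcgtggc
MCM7: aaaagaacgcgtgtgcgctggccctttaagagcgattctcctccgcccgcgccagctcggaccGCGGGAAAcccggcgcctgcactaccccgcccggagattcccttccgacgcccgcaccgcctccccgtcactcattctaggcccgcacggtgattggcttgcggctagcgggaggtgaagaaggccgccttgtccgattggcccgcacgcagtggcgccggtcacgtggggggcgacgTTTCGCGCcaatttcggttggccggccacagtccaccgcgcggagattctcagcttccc
GINS2: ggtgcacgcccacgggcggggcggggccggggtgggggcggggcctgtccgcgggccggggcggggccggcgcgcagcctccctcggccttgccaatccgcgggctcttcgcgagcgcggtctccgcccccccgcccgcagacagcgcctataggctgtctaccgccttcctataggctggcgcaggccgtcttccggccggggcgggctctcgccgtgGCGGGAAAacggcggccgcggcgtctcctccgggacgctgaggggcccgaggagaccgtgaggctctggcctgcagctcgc
UHRF1: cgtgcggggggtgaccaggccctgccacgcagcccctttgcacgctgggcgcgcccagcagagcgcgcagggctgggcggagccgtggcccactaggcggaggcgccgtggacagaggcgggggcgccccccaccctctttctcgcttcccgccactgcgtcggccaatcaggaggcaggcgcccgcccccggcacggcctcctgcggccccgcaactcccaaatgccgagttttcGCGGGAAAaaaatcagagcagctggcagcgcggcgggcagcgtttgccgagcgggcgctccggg
CDC45: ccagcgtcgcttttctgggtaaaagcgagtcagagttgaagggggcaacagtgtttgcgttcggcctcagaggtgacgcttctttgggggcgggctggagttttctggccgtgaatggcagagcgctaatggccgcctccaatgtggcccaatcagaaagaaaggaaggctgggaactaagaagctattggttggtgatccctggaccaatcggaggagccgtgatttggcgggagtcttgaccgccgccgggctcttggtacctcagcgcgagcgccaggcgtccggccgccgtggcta
With the first base of the transcript as position 0, the 2 matches in MCM2 begin at 2 and 6 and overlap, and in MCM6 overlapping pairs begin at -152 and -148 and at -90 and -86. Matches in MCM7 begin at positions -187 and -9, that of GINS2 at -31 and that of UHRF1 at -14. The CCAAT box, which NF-Y binds, was present in 20 of the 39 windows (51.3%), 4 times in CDC45, against 35.7% of all windows. The letters TTTGAA or TTCGAA, the CHR element known from mitotic promoters, were in 2 of 39 (5.1%, MCM6 and RRM1), against 16.6%. In all 3 of the comparisons with most calls (DHT title, DEX-set replicate number, and DEX-set siFoxA1 title with replicate number as a term) 17 genes were lower. Of the 15 of these with a window 11 held an E2F spelling, as did 8 of the 24 other genes with one. The DHT title call used here was without that term. With it, RFC2, RFC4, RFC5, RRM1 and UNG would join the 17, and none of their windows held an E2F spelling. The split therefore depends on which fit is used. The 17 were chosen by those calls, 2 of which rest on the same 8 arrays, so this split is a description with no test, and a match is a run of letters and not a shown binding site.

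**Figure D1:**
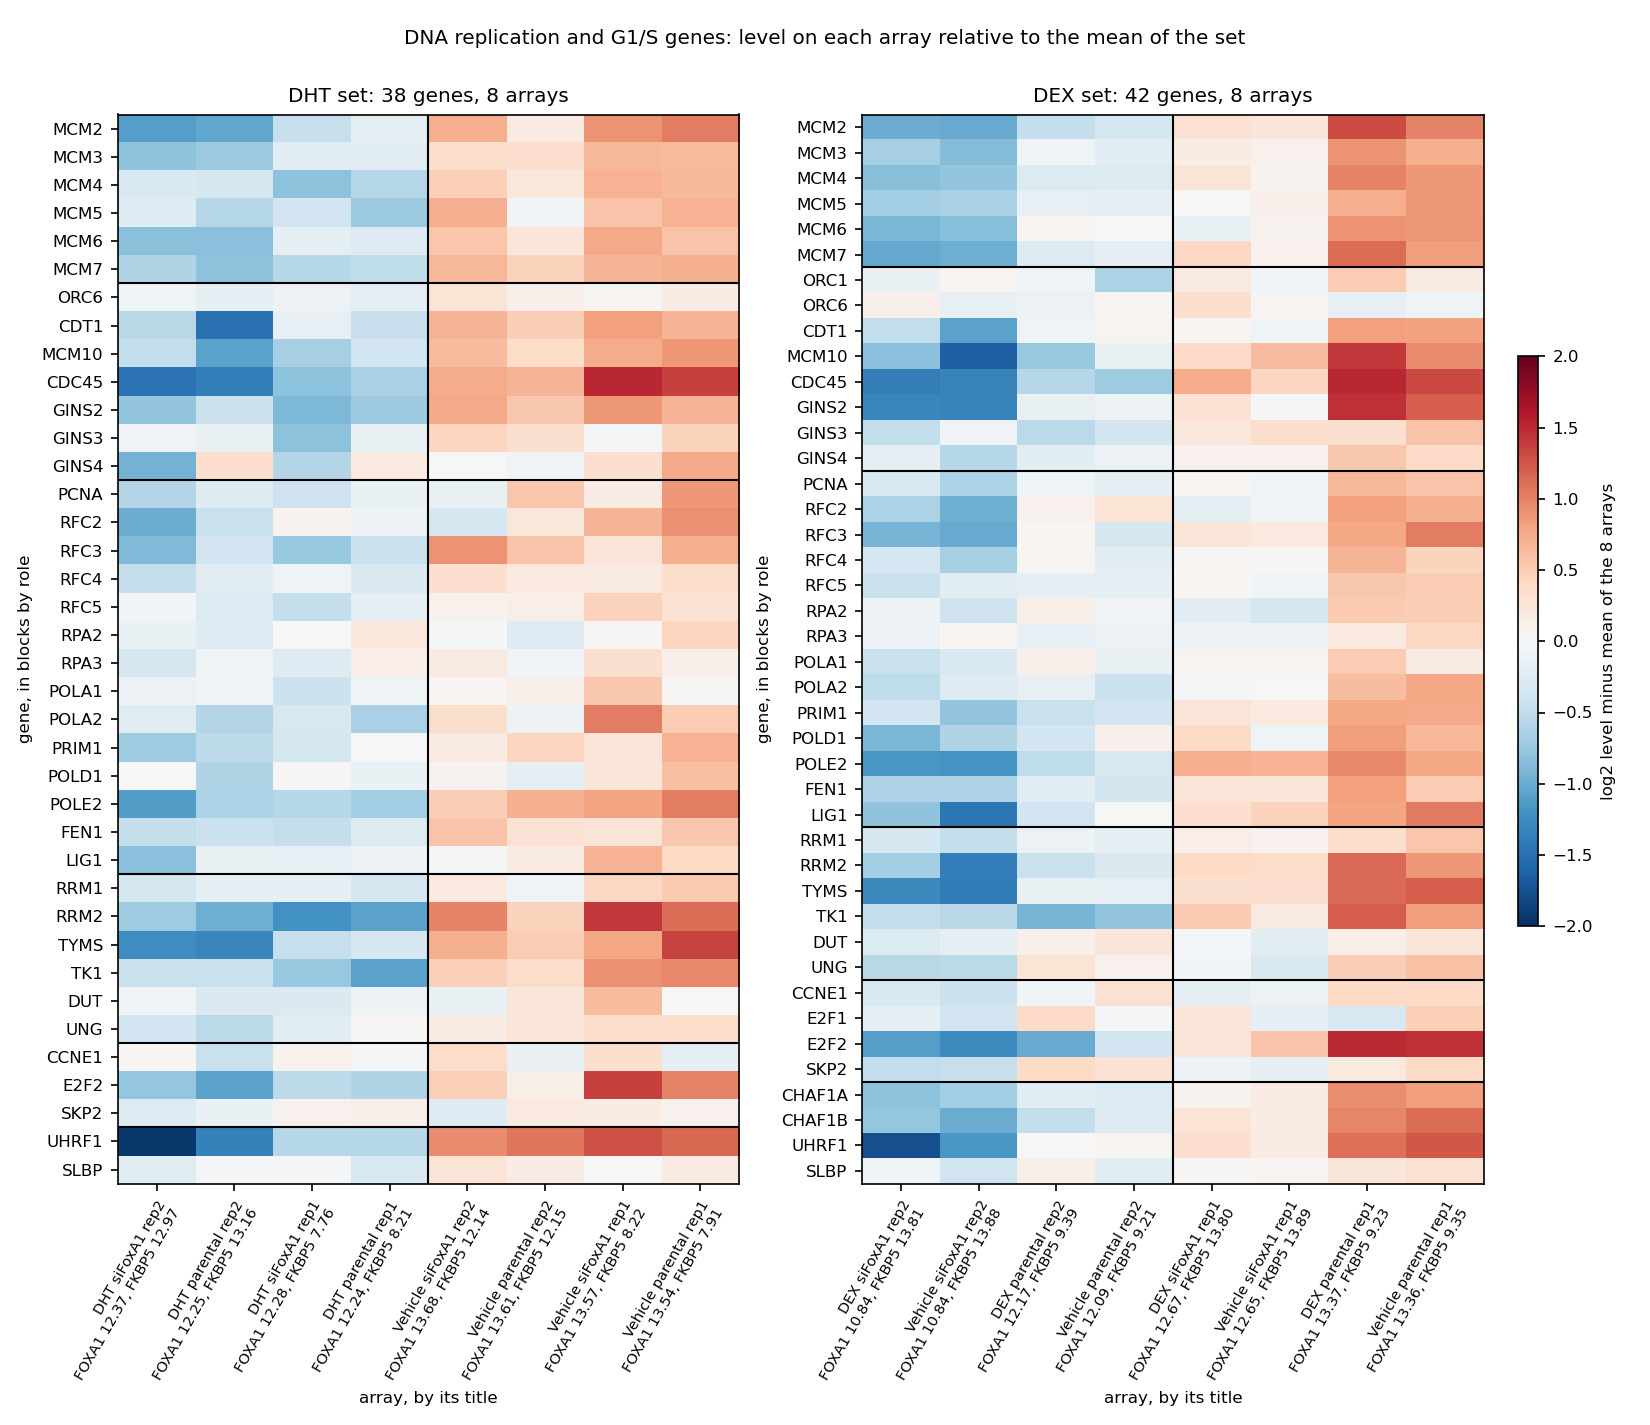
Level of each tested gene on each array, as its log2 level minus its mean over the 8 arrays of its set (blue lower, red higher); arrays run along the x axis by title with their FOXA1 and FKBP5 log2 levels, genes run down in blocks by role. In the DHT set the 4 DHT-titled arrays are blue for most genes, and in the DEX set the siFoxA1 replicate 2 arrays are the bluest and the parental replicate 1 arrays the reddest.

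In the DHT set, replication genes were lower on the DHT-titled arrays than on the vehicle-titled arrays, and the median difference of each of the 6 roles was below 0. Of the 38 tested, 21 fell and 0 rose (limma, adjusted over all 9028 genes), against 3.4% of all genes falling and 2.6% rising by the same call. The median difference was -0.81, against -0.02 for all genes, and 38 of 38 fitted differences were below 0, from -2.21 for UHRF1 to -0.08 for RPA2. The 4 DHT-titled arrays lay below the 4 vehicle-titled arrays without overlap for 29 of the 38 genes, against 10% of all genes. With replicate number as a term in the model, 27 fell, against 10.8% of all genes, and 0 rose, against 8.93%. The counts of 21, 27 and 29 all include MCM10, POLE2, RRM2 and E2F2, which no DHT-titled array detected. These genes entered the test through vehicle-titled arrays alone, and their adjusted p-values rest on background values under the DHT title. In bulk RNA, fewer cells in S phase and less of each transcript per cell cannot be told apart.

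All 6 MCM subunits, which form the ring-shaped helicase, fell under the DHT title. MCM7 was at 9.99, 9.77, 10.02 and 10.09 on the DHT-titled arrays, against 11.26, 11.07, 11.28 and 11.32 on the vehicle-titled ones. The groups do not overlap and each spreads less than the gap between them, a difference of -1.26 ± 0.12 (adjusted p = 0.00217, 2.4-fold lower). MCM4 was at 8.42, 8.37, 7.91 and 8.16 on the DHT-titled arrays, against 9.20, 8.95, 9.41 and 9.37 on the vehicle-titled ones, and differed by -1.02 ± 0.17 (adjusted p = 0.0192). The lowest MCM4 arrays were those of replicate 1 among the DHT titles. The other subunits ranged from -0.97 ± 0.20 for MCM5 through -0.99 for MCM3 and -1.06 for MCM6 to -1.41 ± 0.27 for MCM2, with no overlap in any of the 6.

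Among the factors that load or activate the helicase, 4 of the 7 tested fell. CDC45, which joins the ring to start unwinding, was at 5.87, 5.98, 6.54 and 6.70 on the DHT-titled arrays, against 8.10, 8.04, 8.86 and 8.73 on the vehicle-titled ones. Its fitted difference was -2.16 ± 0.29 (adjusted p = 0.0092), but it was detected on 2 of the 4 DHT-titled arrays, so the lower values are partly near background. Within each hormone title the replicate 2 arrays were the lower ones. GINS2, a subunit of the complex that binds beside CDC45, was at 7.33, 7.69, 7.21 and 7.39 on the DHT-titled arrays, against 8.86, 8.66, 8.99 and 8.79 on the vehicle-titled ones, a difference of -1.42 ± 0.14 (adjusted p = 0.00225). CDT1, the licensing factor that brings MCM rings to origins, was at 6.78, 5.85, 7.17 and 6.88 on the DHT-titled arrays, against 8.01, 7.82, 8.15 and 8.02 on the vehicle-titled ones. Its difference of -1.33 ± 0.25 (adjusted p = 0.0253) included 1 DHT-titled array, parental replicate 2, that lay well below the other 3, and CDT1 was detected on 3 of the 4. MCM10, which helps to activate the ring, was not detected on any DHT-titled array and was at least 1.15-fold lower. GINS3 differed by -0.59 ± 0.21 and GINS4 by -0.50 ± 0.26, neither passing (adjusted p = 0.162 and 0.298). ORC6, a subunit of the origin recognition complex, differed by -0.29 ± 0.08 (adjusted p = 0.0933), and by -0.99 on its other, dimmer probe, which was detected on 4 arrays.

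Of the 14 polymerase, clamp and single-strand binding genes 6 fell, with a median of -0.66 over the 14. RFC3, a subunit of the clamp loader, was at 7.44, 7.95, 7.57 and 7.89 on the DHT-titled arrays, against 9.22, 8.89, 8.58 and 9.05 on the vehicle-titled ones. The difference was -1.22 ± 0.17 (adjusted p = 0.00978), with no overlap. FEN1, the nuclease that trims Okazaki fragments, was at 9.41, 9.45, 9.40 and 9.61 on the DHT-titled arrays, against 10.45, 10.16, 10.15 and 10.42 on the vehicle-titled ones, a difference of -0.83 ± 0.13 (adjusted p = 0.0135). POLE2, a subunit of the leading-strand polymerase, was at 5.12, 5.61, 5.67 and 5.55 on the DHT-titled arrays, against 6.74, 6.96, 7.03 and 7.28 on the vehicle-titled ones. It was not detected on any DHT-titled array and was at least 1.73-fold lower. The limma adjusted p of 0.011 belongs to the fitted values and not to this bound. PCNA, the sliding clamp, fell by 0.70 ± 0.14 (adjusted p = 0.0355) although its groups overlapped, and its other probes gave 0.23 and -0.45. POLA2 (-0.89 ± 0.21) and PRIM1 (-0.79 ± 0.18), both of the complex of polymerase alpha and primase, fell with adjusted p of 0.0487 and 0.047. The single-strand binding proteins RPA2 and RPA3, at -0.08 ± 0.18 and -0.28 ± 0.10, did not pass (adjusted p = 0.824 and 0.177). RFC2, RFC4 and RFC5 passed only with the replicate term (adjusted p = 0.0374, 0.011 and 0.0367). RFC2 differed by -0.73, and by -0.07 on its other probe. LIG1 (-0.62), POLA1 (-0.36) and POLD1 (-0.36) did not pass either way.

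In nucleotide supply, 3 of 6 genes fell. RRM2, the cell-cycle-regulated subunit of ribonucleotide reductase, was at 5.72, 5.47, 5.22 and 5.37 on the DHT-titled arrays, against 7.42, 6.89, 7.85 and 7.55 on the vehicle-titled ones. It was detected on all 4 vehicle-titled arrays and on 0 of the DHT-titled arrays, at least 2.33-fold lower. The limma adjusted p of 0.00596 belongs to the fitted values and not to this bound. TYMS, thymidylate synthase, was at 7.78, 7.72, 8.55 and 8.67 on the DHT-titled arrays, against 9.72, 9.53, 9.78 and 10.37 on the vehicle-titled ones, a difference of -1.67 ± 0.29 (adjusted p = 0.0214). TK1, the thymidine salvage kinase, was at 8.92, 8.92, 8.60 and 8.30 on the DHT-titled arrays, against 9.84, 9.73, 10.27 and 10.33 on the vehicle-titled ones, a difference of -1.36 ± 0.21 (adjusted p = 0.0145). The lowest TK1 level stood in the DHT-titled parental array of replicate 1, whereas for TYMS the replicate 2 arrays were lowest. RRM1, the constant subunit of the reductase, and the uracil glycosylase UNG differed by -0.53 and -0.57 and passed only with the replicate term (adjusted p = 0.0127 and 0.00527). DUT, the dUTPase, differed by -0.37 ± 0.21 (adjusted p = 0.349), with -0.55 and -0.76 on its other probes.

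Of the G1/S regulators on the list, E2F2, an activator E2F, was detected on 3 of 4 vehicle-titled arrays and no DHT-titled array. It was at least 1.23-fold lower, and the limma adjusted p of 0.0401 belongs to its fitted values and not to this bound. Cyclin E1 (CCNE1) and SKP2, the ubiquitin ligase subunit that removes the CDK inhibitor p27, differed by -0.18 ± 0.15 and -0.09 ± 0.15 and did not pass (adjusted p = 0.514 and 0.752); a dimmer SKP2 probe gave 0.29. UHRF1, which carries DNA methylation across replication, was at 5.69, 6.28, 7.06 and 7.06 on the DHT-titled arrays, against 8.58, 8.69, 8.90 and 8.77 on the vehicle-titled ones. Its fitted difference was -2.21 ± 0.32 (adjusted p = 0.011), with detection on 3 of the 4 DHT-titled arrays, and the vehicle-titled arrays lay within a narrow band while the DHT-titled ones spread. SLBP, the histone mRNA binding protein, differed by -0.30 ± 0.14 (adjusted p = 0.24).

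The count of 21 depends on how the replicate numbers enter. Left out in turn, the vehicle parental arrays of replicates 1 and 2 gave 5 and 13 genes lower, the vehicle siFoxA1 arrays of replicates 1 and 2 gave 6 and 8, and the DHT parental and DHT siFoxA1 arrays of replicate 2 gave 10 each. With replicate number as a term the same omissions gave 22 to 25. MCM7, GINS2, RRM2, CDC45 and RFC3 passed without any 1 of the 8 arrays. UHRF1, POLE2 and TK1 missed without either vehicle array of replicate 1 (adjusted p 0.0504 to 0.0623). MCM4, FEN1, TYMS and CDT1 missed without the vehicle parental array of replicate 1 and without the vehicle siFoxA1 array of replicate 2. MCM4, TYMS and CDT1 also missed without the vehicle siFoxA1 array of replicate 1, FEN1 and TYMS without the DHT parental array of replicate 2, TYMS and CDT1 without the DHT siFoxA1 array of replicate 2, MCM4 without the DHT parental array of replicate 1 and CDT1 without the vehicle parental array of replicate 2 (adjusted p 0.0525 to 0.0951 over these). Within the parental titles alone 2 genes fell, against 0.343% of all genes, or 20 with replicate number as a term, against 4.52%. Within the siFoxA1 titles 3 fell, against 0.521%, or 20 with that term, against 4.94%. Both subsets had all 38 differences at or below 0, with medians of -0.82 and -0.91.

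**Figure D2:**
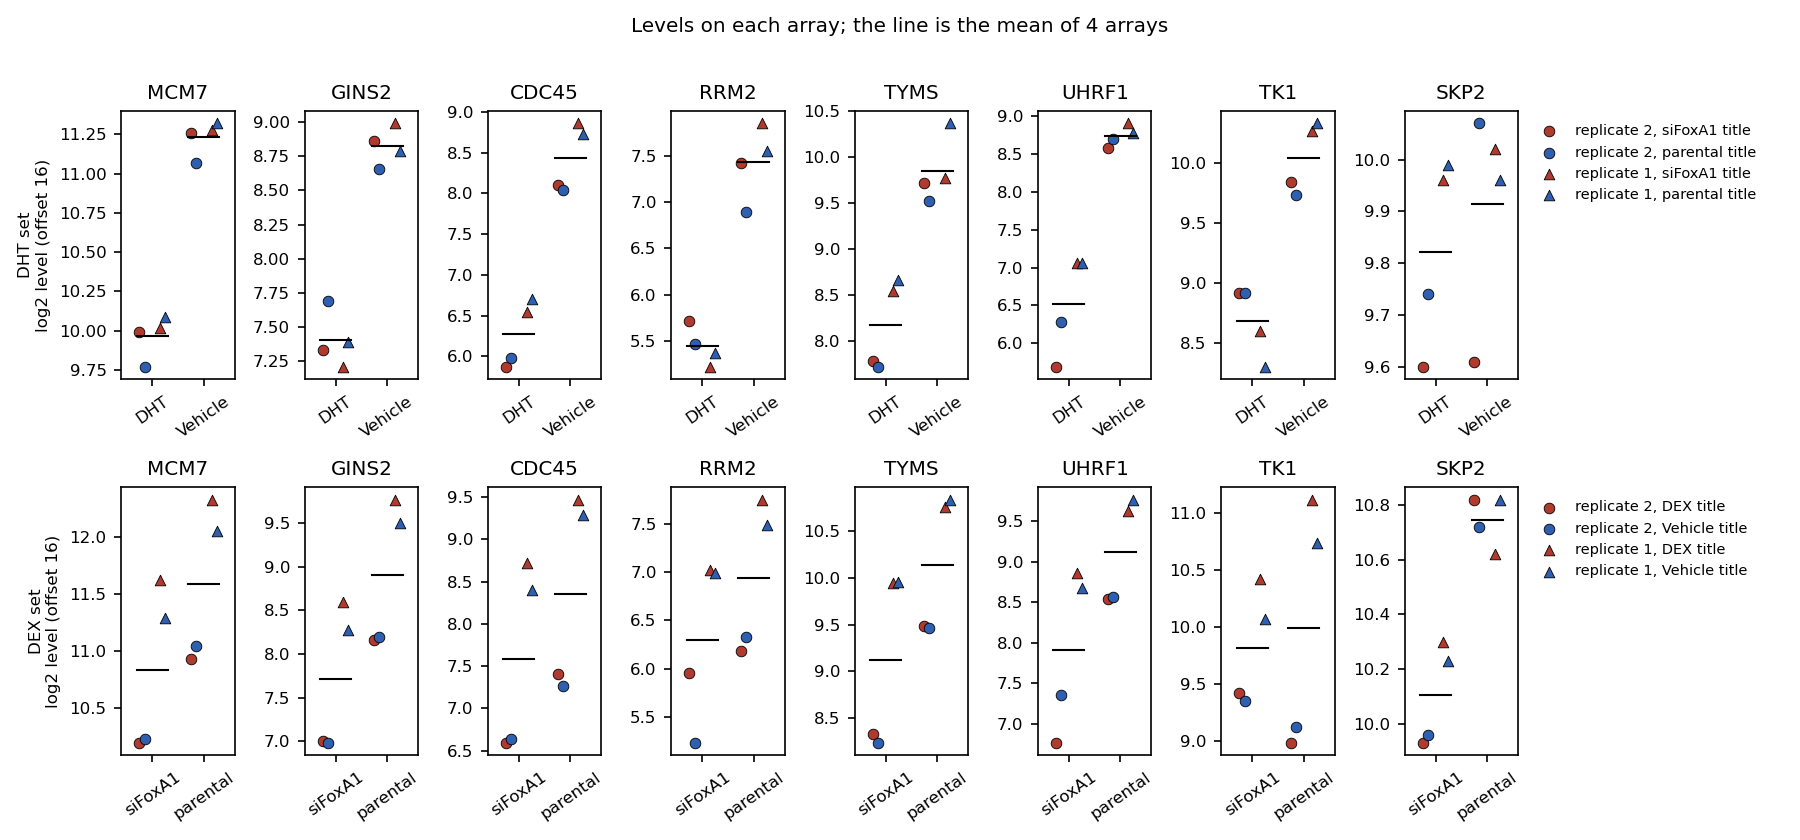
Log2 level of 8 genes on each array; the upper row sets DHT-titled against vehicle-titled arrays of the DHT set, the lower row siFoxA1-titled against parental-titled arrays of the DEX set, and each line is the mean of 4 arrays (circles replicate 2, triangles replicate 1; red siFoxA1 and blue parental titles in the upper row, red DEX and blue vehicle titles in the lower row). MCM7 and RRM2 separate by DHT title in the upper row, while in the lower row the circles lie below the triangles of the same title for every gene but SKP2, where the parental-titled circles and triangles overlap.

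The siFoxA1 title itself did not separate replication genes in the DHT set. By limma 0 of 38 passed, as did 0% of all genes in each direction, and 3 of the 38 had an unadjusted p under 0.05, as did 206 of all 9028 genes. With replicate number as a term 0 passed as well, and 4 of the 38 and 452 of all genes had an unadjusted p under 0.05. Differences ranged from -0.61 for GINS4 to 0.41 for POLA2, with a median of -0.01 against 0.01 for all genes. PCNA was at 7.92, 8.09, 8.36 and 8.65 on the siFoxA1-titled arrays, against 8.25, 8.37, 9.04 and 9.37 on the parental-titled ones, in the order DHT replicate 2, DHT replicate 1, vehicle replicate 2 and vehicle replicate 1. Its difference of -0.50 ± 0.14 was the member with the largest moderated statistic (adjusted p = 1). CCNE1 was at 7.61, 7.63, 7.93 and 7.88 on the siFoxA1-titled arrays, against 7.12, 7.53, 7.44 and 7.37 on the parental-titled ones, without overlap, which held for 0.831% of all genes in that direction and 0.986% in the other (difference 0.40 ± 0.15). The hormone title by siFoxA1 title interaction called 0 members, with 1 at an unadjusted p under 0.05, RPA3 at -0.55 ± 0.21; PCNA stood at 0.40 ± 0.29, GINS2 at -0.47 ± 0.27 and GINS4 at -0.85 ± 0.51. The difference by DHT title was thus not shown to differ between the siFoxA1 and parental titles.

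Between replicate numbers, 6 of the 38 genes fell in replicate 2 of the DHT set relative to replicate 1, against 6.92% of all genes, and 0 rose, against 6.37%. This is the axis on which FKBP5 differed in that set. The median was -0.23, against -0.02 for all genes, and 32 of 38 differences were below 0. RPA2 alone had replicate groups without overlap, all lower, which held for 6.89% of all genes, with 5.82% all higher. CDC45 was at 5.87, 5.98, 8.10 and 8.04 on the replicate 2 arrays, against 6.54, 6.70, 8.86 and 8.73 on the replicate 1 arrays, in the order DHT siFoxA1, DHT parental, vehicle siFoxA1 and vehicle parental. It was detected on 2 of the 4 replicate 2 arrays and on all 4 of replicate 1. Each replicate 2 array lay below the replicate 1 array of the same title, although the groups overlap (-0.71 ± 0.15, adjusted p = 0.0104). MCM2 was at 7.58, 7.64, 9.41 and 8.85 on the replicate 2 arrays, against 8.22, 8.48, 9.59 and 9.70 on the replicate 1 arrays, a difference of -0.63 ± 0.15 (adjusted p = 0.0178). TYMS (-0.66 ± 0.16), MCM3 (-0.43 ± 0.11), MCM6 (-0.44 ± 0.12) and RFC2 (-0.78 ± 0.22) had adjusted p of 0.0204, 0.0237, 0.0343 and 0.0375. RFC2 was at 5.26, 5.81, 5.91 and 6.48 on the replicate 2 arrays, against 6.32, 6.16, 6.94 and 7.16 on the replicate 1 arrays, was detected on 1 of the 4 replicate 2 arrays and all 4 of replicate 1, and differed by -0.13 on its other probe. The remaining MCM subunits did not pass: MCM4 at 0.02 ± 0.16, MCM5 at -0.08 ± 0.18 and MCM7 at -0.16 ± 0.10. Left out in turn, the vehicle parental arrays of replicates 1 and 2 each gave 3 genes lower, the DHT parental arrays of either replicate and the DHT siFoxA1 array of replicate 2 gave 2, and the DHT siFoxA1 array of replicate 1 gave 1. CDC45 passed without any 1 of the arrays. Within the siFoxA1 titles alone 0 genes fell, against 1.95% of all genes, and within the parental titles 3, against 1.87%.

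The DHT title difference could be set against itself between replicate numbers. Of the 38 genes 24 fell within replicate 2 and 27 within replicate 1, against 14.3% and 10.5% of all genes falling and 11.6% and 9.71% rising. The difference between these differences passed for 1 gene, TK1, against 3.08% of all genes higher and 4.18% lower by the same call. By DHT title TK1 differed by -0.86 ± 0.15 in replicate 2 and by -1.85 ± 0.15 in replicate 1 (interaction 0.98 ± 0.22, adjusted p = 0.00418). UHRF1 (-0.87 ± 0.30, adjusted p = 0.0848), MCM4 (0.68 ± 0.24, 0.0951) and POLA2 (0.72 ± 0.26, 0.0961) did not pass. UHRF1 was at -2.65 in replicate 2 and -1.78 in replicate 1, and MCM4 at -0.68 and -1.36 in the same order.

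In the DEX set the DEX title did not separate any replication gene from the vehicle title. Of 42 tested, 0 passed by limma, as did 0% of all genes in each direction, and 0 had an unadjusted p under 0.05, with or without replicate number as a term, beside 180 and 44 of all 10999 genes. Differences ranged from -0.23 to 0.23, with a median of 0.06 against 0.00 for all genes, and no gene had groups without overlap. RPA2, with the largest moderated statistic, was at 10.68, 10.91, 10.58 and 11.32 on the DEX-titled arrays, against 10.38, 10.72, 10.44 and 11.28 on the vehicle-titled ones (difference 0.17 ± 0.16, adjusted p = 1). ORC1, the ATPase subunit of the origin recognition complex, was at 6.23, 6.28, 6.55 and 6.87 on the DEX-titled arrays, against 6.40, 5.74, 6.31 and 6.55 on the vehicle-titled ones (0.23 ± 0.26). ORC6 and RFC4 differed by 0.08 ± 0.09 and 0.20 ± 0.24. The interaction of hormone title and siFoxA1 title also called 0, with E2F1 at 0.51 ± 0.49, ORC6 at 0.37 ± 0.19, ORC1 at -0.40 ± 0.51 and POLA1 at -0.37 ± 0.39. An unadjusted p under 0.05 was found for 0 of the 42 without replicate number as a term and 1 with it, beside 80 and 218 of all genes.

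By siFoxA1 title, 2 of 42 genes fell in the DEX set, SKP2 and UNG, which is near the share of all genes, 4.45%. With replicate number as a term 30 of 42 fell, against 19.5% of all genes. The median difference was -0.61, against -0.06 for all genes. SKP2 was at 9.93, 9.96, 10.30 and 10.23 on the siFoxA1-titled arrays, against 10.82, 10.72, 10.62 and 10.82 on the parental-titled ones, in the order DEX replicate 2, vehicle replicate 2, DEX replicate 1 and vehicle replicate 1. The groups did not overlap and the parental-titled arrays showed no split by replicate number (-0.64 ± 0.13, adjusted p = 0.022). UNG, which removes uracil from new DNA, was at 10.25, 10.27, 10.75 and 10.50 on the siFoxA1-titled arrays, against 11.07, 10.88, 11.29 and 11.38 on the parental-titled ones, again without overlap (-0.72 ± 0.17, adjusted p = 0.0367). A dimmer UNG probe, detected on 4 arrays, differed by -0.25, and a dimmer SKP2 probe, detected on 5, by -0.50. SKP2 missed without the vehicle parental array of either replicate or any of the DEX parental, vehicle siFoxA1 and DEX siFoxA1 arrays of replicate 2 (adjusted p 0.0639 to 0.0802). UNG missed without the vehicle parental array of replicate 1, either DEX parental array, either vehicle siFoxA1 array or the DEX siFoxA1 array of replicate 2 (0.0681 to 0.116). Within the vehicle titles and within the DEX titles alone 0 genes fell, against 0.491% and 0.5% of all genes. With the replicate term 21 fell within the vehicle titles, against 9.97% of all genes, and 17 fell and 1 rose within the DEX titles, against 10.2% and 9.61%. The count of 2 was 0 to 2 with each array left out, and the count of 30 was 22 to 27.

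Other members of the DEX set passed by siFoxA1 title once replicate number entered the model. GINS2 was at 7.0, 6.98, 8.60 and 8.28 on the siFoxA1-titled arrays, against 8.16, 8.20, 9.77 and 9.5 on the parental-titled ones. Within replicate 2 and within replicate 1 the siFoxA1-titled arrays are the lower ones, so the difference of -1.19 had an SE of 0.13 with the replicate term (adjusted p = 2.69e-05) and 0.55 without it (adjusted p = 0.21). UHRF1 was at 6.76, 7.36, 8.86 and 8.68 on the siFoxA1-titled arrays, against 8.54, 8.57, 9.63 and 9.77 on the parental-titled ones, a difference of -1.21 ± 0.16 with that term (adjusted p = 0.000168). MCM6 was at 9.14, 9.20, 9.92 and 10.12 on the siFoxA1-titled arrays, against 10.09, 10.06, 10.95 and 10.94 on the parental-titled ones (-0.92 ± 0.09, adjusted p = 1.87e-05), and the 6 MCM subunits ranged from -0.61 for MCM5 to -0.92 for MCM6, all 6 called with the term. RFC2, a clamp-loader subunit, was at 6.79, 6.44, 7.23 and 7.35 on the siFoxA1-titled arrays, against 7.51, 7.69, 8.24 and 8.13 on the parental-titled ones, without overlap (-0.94 ± 0.15, adjusted p = 0.00058). RPA2 (-0.53 ± 0.11), CCNE1 (-0.52 ± 0.13) and DUT (-0.36 ± 0.13) were also without overlap, and fell in that model (adjusted p values 0.0038, 0.0108 and 0.0485). Lower groups without overlap held for 6 of 42 genes, near the share of all genes, 12.9%. The other DUT probes differed by -0.49 and -0.06, and the dimmer RFC2 probe, detected on 3 arrays, by -0.29. CDT1 (-0.81 ± 0.13), RFC4 (-0.47 ± 0.10) and PCNA (-0.47 ± 0.10) fell with the term too. The 12 not passing were GINS4, POLA1, POLA2, POLE2 and PRIM1, from -0.46 for POLE2 to -0.30 for GINS4, with ORC1 (0.01 ± 0.21), GINS3 (0.01 ± 0.16), TK1 (-0.17 ± 0.19), RPA3 (-0.16 ± 0.11), E2F1 (-0.26 ± 0.22), SLBP (-0.20 ± 0.11) and ORC6. ORC6 was at 0.16 ± 0.08 on its bright probe and -0.79 on its dimmer one.

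Replicate number gave the most calls of the DEX set: 32 of 42 genes fell in replicate 2 relative to replicate 1, against 13.1% of all genes, and 0 rose. The median was -0.85, against 0.00 for all genes, 42 of 42 differences were below 0, and 27 had replicate groups without overlap, against 9.43% of all genes. FOXA1 fell on the same axis (-1.52 ± 0.11, adjusted p = 3.54e-06) and FKBP5 did not differ beyond its SE (0.00 ± 0.08), and the part of FOXA1 in these differences was not tested. CDC45 was at 6.59, 6.64, 7.41 and 7.26 on the replicate 2 arrays, against 8.72, 8.40, 9.47 and 9.29 on the replicate 1 arrays, in the order DEX siFoxA1, vehicle siFoxA1, DEX parental and vehicle parental. It was detected on all 8 arrays and differed by -2.0 ± 0.13 (adjusted p = 1.53e-06, 3.99-fold lower). TYMS was at 8.33, 8.23, 9.48 and 9.46 on the replicate 2 arrays, against 9.95, 9.96, 10.76 and 10.84 on the replicate 1 arrays (-1.50 ± 0.11, adjusted p = 3.12e-06), and GINS2 at 7.0, 6.98, 8.16 and 8.20 on the replicate 2 arrays, against 8.60, 8.28, 9.77 and 9.5 on the replicate 1 arrays (-1.45 ± 0.13, adjusted p = 1.03e-05). For both, the parental-titled replicate 2 arrays and the siFoxA1-titled replicate 1 arrays lie between the other 4.

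All 6 MCM subunits fell in replicate 2 of the DEX set. MCM7 was at 10.19, 10.23, 10.93 and 11.04 on the replicate 2 arrays, against 11.62, 11.29, 12.33 and 12.05 on the replicate 1 arrays (-1.22 ± 0.10, adjusted p = 5.96e-06). MCM2 was at 8.02, 8.0, 8.53 and 8.65 on the replicate 2 arrays, against 9.30, 9.26, 10.32 and 10.00 on the replicate 1 arrays (-1.42 ± 0.12, adjusted p = 1.03e-05). Both separated completely by replicate number. MCM3 (-0.91 ± 0.08), MCM4 (-1.09 ± 0.11), MCM5 (-0.85 ± 0.13) and MCM6 (-0.86 ± 0.09) followed, of which only MCM6 had overlapping groups. POLE2 was at 6.0, 5.98, 6.65 and 6.85 on the replicate 2 arrays, against 7.89, 7.86, 8.12 and 7.94 on the replicate 1 arrays, a difference of -1.58 ± 0.18 (adjusted p = 7.05e-05), and FEN1 at 9.43, 9.43, 9.83 and 9.68 on the replicate 2 arrays, against 10.30, 10.30, 10.87 and 10.56 on the replicate 1 arrays (-0.92 ± 0.09, adjusted p = 3.44e-05). E2F2 was at 5.32, 5.14, 5.41 and 6.04 on the replicate 2 arrays, against 6.66, 7.0, 7.90 and 7.89 on the replicate 1 arrays. E2F2 was detected on 1 of the 4 replicate 2 arrays and on all 4 of replicate 1, so its fitted difference of -1.88 ± 0.22 (adjusted p = 8.56e-05) rests partly on values near background. E2F1 was at -0.10 ± 0.22 (adjusted p = 0.78), and the difference between these genes was not tested. UHRF1 differed by -1.43 ± 0.16, the histone chaperone subunits CHAF1B by -1.26 ± 0.15 and CHAF1A by at least 1.5-fold lower, since no replicate 2 array detected CHAF1A. CHAF1A is counted among the genes that fell and among those without overlap, although it entered the test through replicate 1 arrays alone. MCM10 (-1.68 ± 0.22), RRM2 (-1.39 ± 0.19), TK1 (-1.37 ± 0.19), LIG1, the ligase that seals Okazaki fragments (-1.31 ± 0.18), and PRIM1 (-1.0 ± 0.14) also fell, with MCM10 and RRM2 detected on 3 of the 4 replicate 2 arrays. The 10 genes that did not pass were ORC1, ORC6, GINS4, RPA2, RPA3, DUT, CCNE1, E2F1, SKP2 and SLBP, from -0.55 for GINS4 to -0.05 for DUT. ORC6 was at -0.07 on its bright probe and -0.91 on its dimmer one, and DUT at -0.76 and -0.69 on its other probes, so these values depend on the probe. With each array left out, 29 to 31 genes fell.

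**Figure D3:**
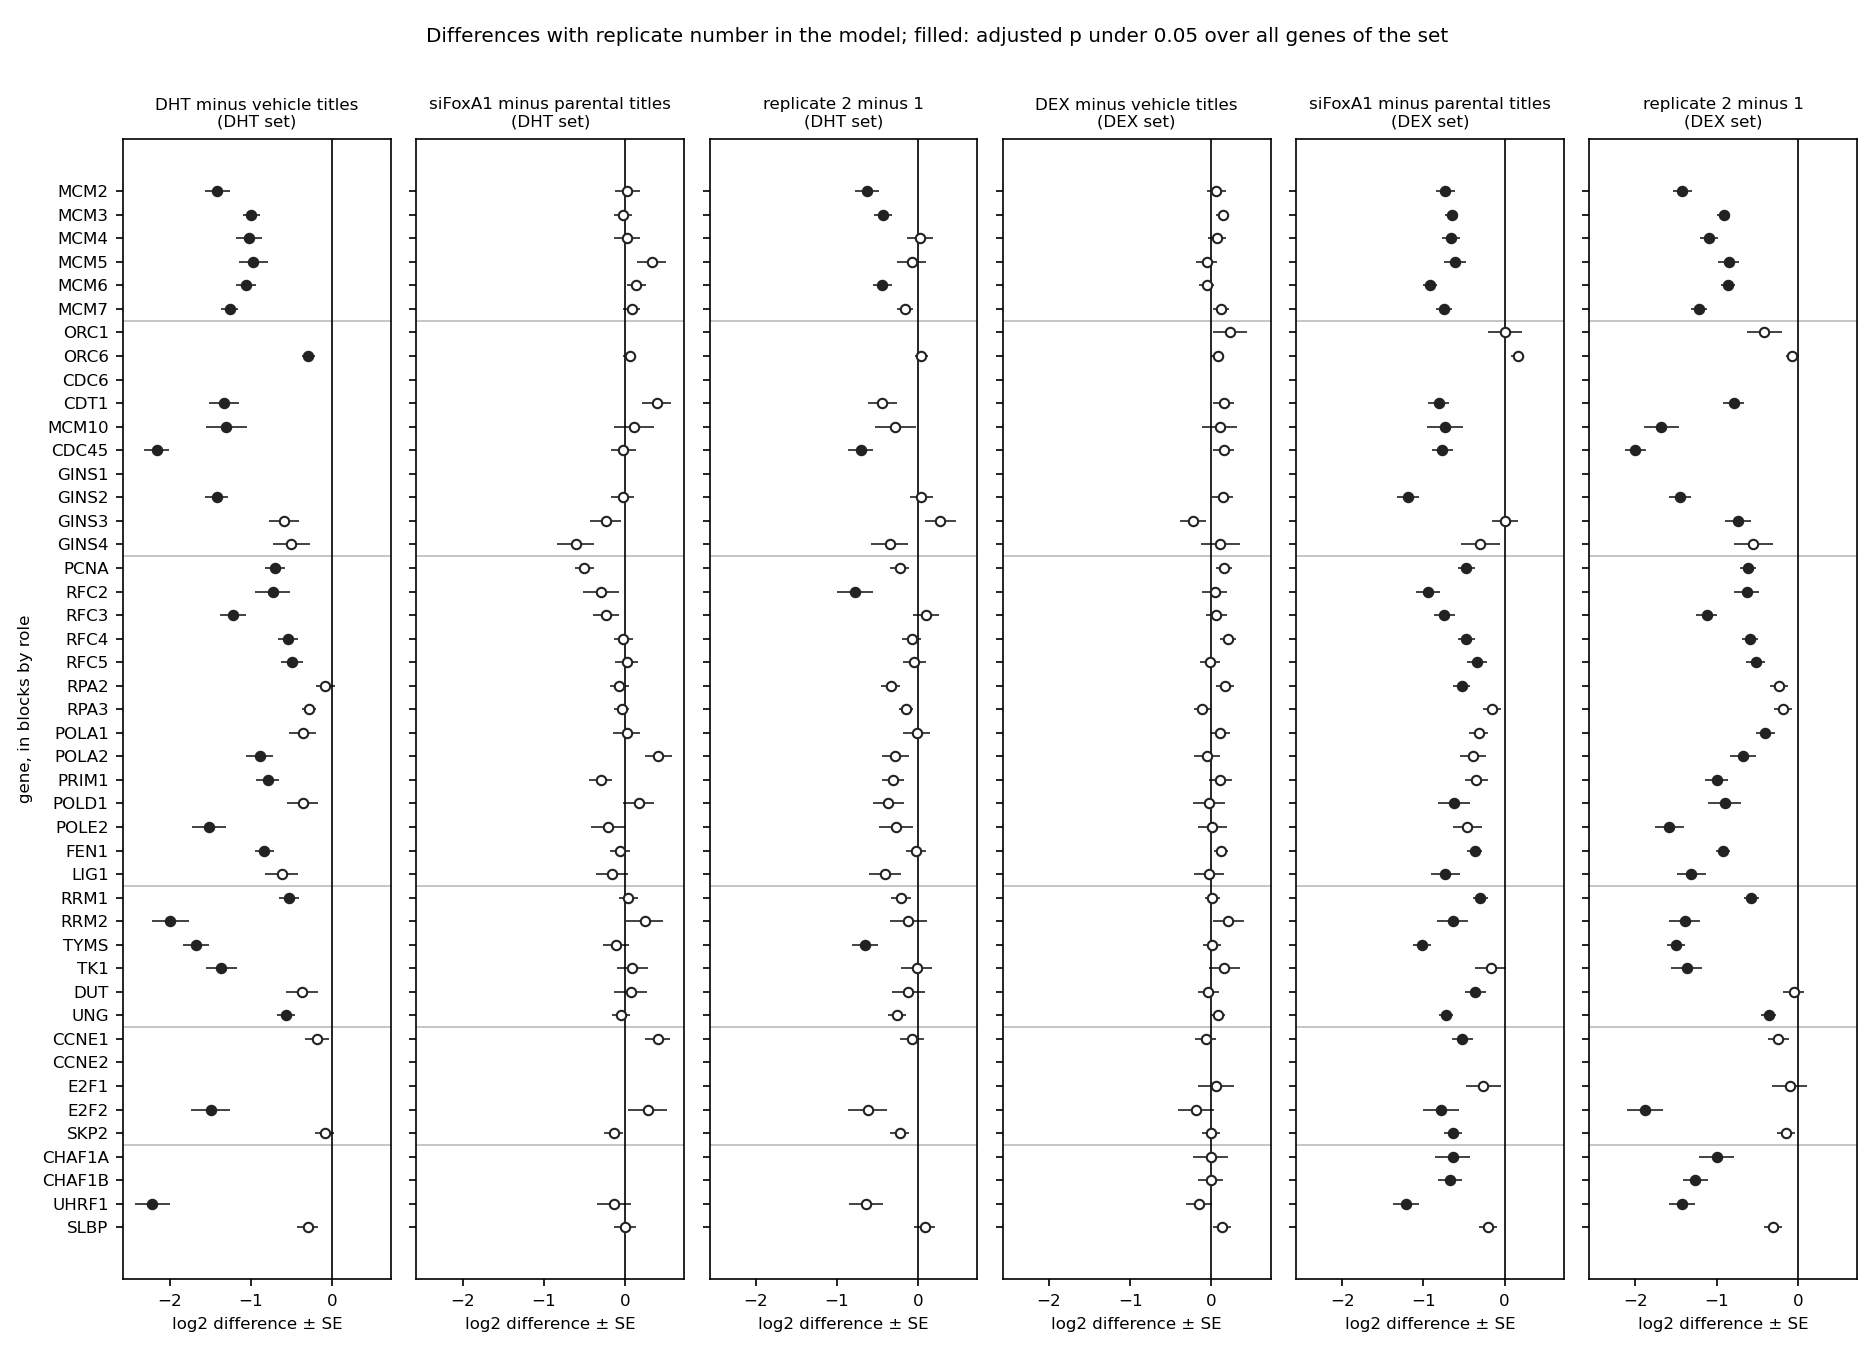
Log2 difference of each gene with its SE (replicate number in the model) for hormone title, siFoxA1 title and replicate number in the DHT set (left 3 panels) and the DEX set (right 3 panels); filled points passed an adjusted p of 0.05 over all genes of the set. In the DHT set 27, 0 and 6 points are filled, and in the DEX set 0, 30 and 32.

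Within a set the title and replicate axes rest on the same 8 arrays, so the values below are given side by side and not compared. In the DHT set CDC45 was at -2.16 by DHT title and -0.71 by replicate number, TYMS at -1.67 and -0.66, and MCM7 at -1.26 and -0.16. RRM2 was at -1.99 by DHT title and -0.12 by replicate number, and GINS2 at -1.42 and 0.04. In the DEX set CDC45 was at -0.77 by siFoxA1 title and -2.0 by replicate number, SKP2 at -0.64 and -0.14, and UNG at -0.72 and -0.36. Passing on 1 axis and not on the other does not show that the axes differ for these genes, which was not tested.

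TK1 and RPA3 were the genes for which the siFoxA1 title difference changed with replicate number in the DEX set (2 of 42 higher, against 2.26% of all genes). TK1 was at 9.42 and 9.35 on the siFoxA1-titled arrays of replicate 2 (DEX, then vehicle), against 8.98 and 9.12 on the parental-titled ones. In replicate 1 it was at 10.42 and 10.07 under siFoxA1 titles, against 11.12 and 10.74 under parental titles. The title difference was therefore 0.34 ± 0.13 in replicate 2 and -0.69 ± 0.13 in replicate 1 (interaction 1.02 ± 0.19, adjusted p = 0.00228). RPA3 differed by 0.09 ± 0.10 in replicate 2 and -0.42 ± 0.10 in replicate 1 (interaction 0.51 ± 0.13, adjusted p = 0.03). TK1 missed without the vehicle siFoxA1 array of replicate 2 (adjusted p = 0.0538). RPA3 missed without any 1 array except the DEX parental array of replicate 2 (adjusted p 0.0531 to 0.195). Within replicate 2, 23 of 42 genes fell by siFoxA1 title, and within replicate 1, 28 fell and ORC6 rose (0.32 ± 0.10), against 19% of all genes lower and 15.5% higher in replicate 2, and 16.6% lower and 14.4% higher in replicate 1. The dimmer ORC6 probe ran the other way by siFoxA1 title (-0.79 over both replicates).

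**Figure D4:**
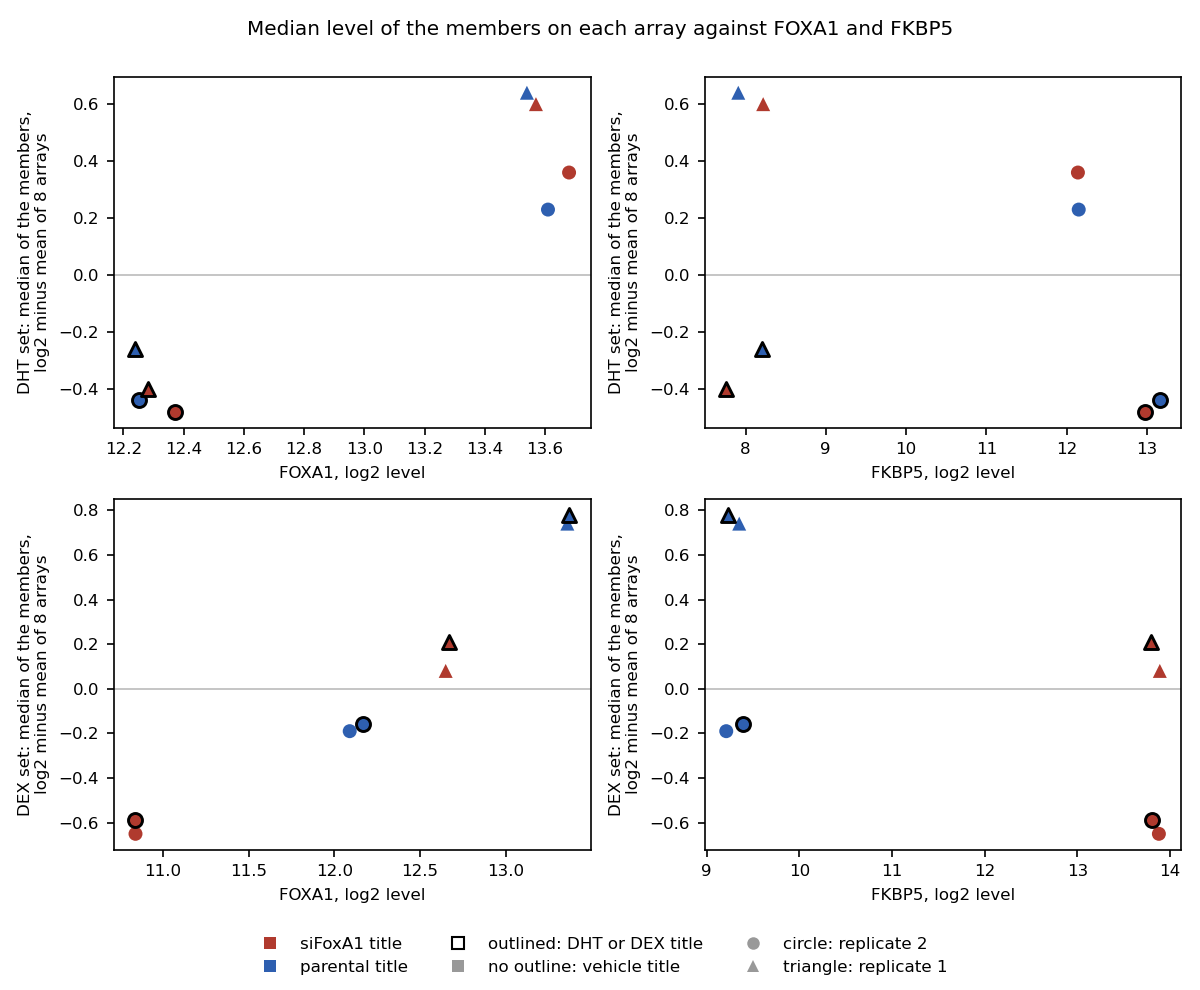
Median level of the tested genes on each array, as the log2 level minus each gene's mean over the 8 arrays, against the FOXA1 and FKBP5 log2 levels of the array (DHT set above, DEX set below; red siFoxA1 titles, blue parental; outlined DHT or DEX titles; circles replicate 2, triangles replicate 1). The 4 DHT-set arrays with low FOXA1 lie at -0.48 to -0.26 and the other 4 at 0.23 to 0.64; in the DEX set the medians run from -0.65 at the lowest FOXA1 to 0.78 at the highest.

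Array by array, the median of the 38 genes in the DHT set was -0.48, -0.44, -0.40 and -0.26 on the DHT-titled arrays (siFoxA1 replicate 2, parental replicate 2, siFoxA1 replicate 1 and parental replicate 1). On the vehicle-titled arrays it was 0.36, 0.23, 0.60 and 0.64 in the same order, while the median of all genes stayed between -0.03 and 0.02. The DHT-titled arrays are those with FOXA1 at 12.24 to 12.37, against 13.54 to 13.68. In the DEX set the median of the 42 genes was -0.59 and -0.65 on the siFoxA1 arrays of replicate 2 (DEX, then vehicle), and -0.16 and -0.19 on the parental arrays of replicate 2. For replicate 1 it was 0.21 and 0.08 on the siFoxA1 arrays and 0.78 and 0.74 on the parental arrays. FOXA1 stood at 10.84 and 10.84, 12.17 and 12.09, 12.67 and 12.65, and 13.37 and 13.36 in that order, so the order of the 4 pairs by replication genes is the order by FOXA1. FKBP5 was high on the 4 siFoxA1-titled arrays (13.80 to 13.89) and low on the parental ones (9.21 to 9.39), and members lay both above and below 0 at each FKBP5 level. What these parallels rest on was not tested.

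Related gene lists give the setting. By DHT title 3 of 27 other replication genes fell and 1 rose (median -0.37), against 3.4% and 2.6% of all genes. With the replicate term 9 of them fell and 1 rose, against 10.8% and 8.93%. By replicate number in the DEX set 16 of 32 fell and 1 rose (median -0.43), against 13.1% and 11.2% of all genes. Of 25 mitosis genes 18 fell by DHT title (median -1.09), or 21 with the replicate term. Of 28 mitosis genes in the DEX set 27 fell by replicate number (median -1.58), and 0 by siFoxA1 title, or 22 with the replicate term, against 19.5% of all genes. By replicate number in the DHT set 0 of 25 mitosis genes fell (median -0.08), against 6.92% of all genes. Other G1/S regulators, such as cyclins, kinases, inhibitors and pocket proteins, had calls in both directions. By DHT title 2 of 22 rose and 2 fell (median 0.06), or 4 rose and 2 fell with the replicate term. By replicate number in the DEX set 4 of 22 rose and 3 fell (median 0.05), beside 11.2% and 13.1% of all genes.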

How the data were processed

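Values are bead-array intensities from 16 arrays. Per the file headers, the authors deposited 1 scanner table per set, with a mean intensity per probe, not normalized between arrays, and a detection p-value against that array's negative control beads. Processed intensities were also deposited by the authors. Of these, 33.4% (DHT set) and 29.2% (DEX set) lie below 0, and their normalization method is not given in the sources used here. BeadStudio is named in the submitters' processing notes.

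Scanner rows are identified by bead address only, so each was joined to the authors' row with the same ranks on all 8 arrays (48794 and 47231 rows joined, 9 and 0 left). Of 39417 probes in both sets, 37888 (96.1%) then had the same bead address. A probe named a gene where the platform annotation gave it 1 symbol (28090 and 30113 probes). It gave several to 13 and 8, and none to 20691 and 17110.

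Each set was background-corrected and quantile normalized on its own with limma 3.58.1 in R 4.3.3 (neqc, offset 16). A probe was kept where 2 or more of the 8 arrays detected it (p under 0.01), and the brightest kept probe stood for its symbol, which left 9028 and 10999 genes. Title differences were fitted as 4 group means, and again with replicate number as a term. Replicate 2 against replicate 1 always had the titles as terms. The test was limma's moderated test with a variance trend, adjusted by Benjamini-Hochberg over all genes of the set and called at 0.05. Deviations of same-numbered arrays from their group means correlated in all 6 pairs of groups (r across genes 0.432 to 0.743 for DHT-set arrays, 0.543 to 0.737 for DEX-set arrays). Arrays of the same number thus share differences from those of the other number. What these shared differences rest on was not tested. P-values of the title fits without the replicate term measure the spread between the biological duplicates. With that term, and for replicate 2 against replicate 1, they measure how far the difference between duplicates varies between the titled groups. Title by replicate number interactions, and title differences within 1 replicate number, came from another fit. It had 4 cells of title by replicate number with the other title as a term, and replicate differences within 1 title were fitted likewise. The 2 arrays of a cell differ in that other title, so these p-values measure the spread between arrays of different titles beyond that term. A bound ("at least") sets the higher group against the lowest detected signal where a group detected the probe on no array. Between 11218 and 12886 probes were detected per DHT-set array, and between 15933 and 17168 per DEX-set array, and their number limits the precision.

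The members and lists were chosen with earlier results of these data known. Named genes are those called with or without the replicate term, at most 12 per comparison by the size of the moderated statistic, or the 4 largest where none was called, with other members given by role. The fits were first tested on simulated data with independent noise and no shift shared by arrays of the same replicate number. That check therefore does not cover the choice of fit with or without the replicate term. Alternatives covered scaling, offset, filter, probe choice, the variance trend, the authors' values, subsets of titles, the replicate term and each array left out. Subset and combined settings were in part chosen after seeing the data.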

Additional observations from a re-analysis of the deposited data

Results flagged for a closer look

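TK1, thymidine kinase, is listed because its DHT title difference in the DHT set differed between the replicate numbers by 0.98 ± 0.22 (limma interaction, SE, adjusted p = 0.00418). The title difference was -0.86 ± 0.15 in replicate 2 and -1.85 ± 0.15 in replicate 1. TK1 is listed again in the DEX set, where its siFoxA1 title difference changed by 1.02 ± 0.19 between replicate numbers (limma, adjusted p = 0.00228). RPA3, a single-strand binding subunit, is listed for the same contrast, with 0.51 ± 0.13 (limma, adjusted p = 0.03).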

How the results depend on the processing

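Genes called are given as totals. For DHT against vehicle titles the count of 21 was 13 over probes detected on all 8 arrays, 2 within parental titles, 3 within siFoxA1 titles and 5 to 17 with each array left out. Replicate 2 against replicate 1 in the DHT set (6) gave 3 within parental titles, 0 within siFoxA1 titles and 1 to 5 with each array left out. The DHT title by replicate interaction (1) gave 0 with no variance trend and 1 to 2 with each array left out. Its median over the genes (0.06) was -0.02 with the authors' values floored at 16 and -0.03 over probes detected on all 8 arrays, and -0.02 to 0.10 with each array left out. The DHT parental replicate 2 and DHT siFoxA1 replicate 1 arrays each gave -0.02 and the vehicle parental replicate 2 array -0.01. For siFoxA1 against parental titles in the DEX set the count of 2 was 1 with median scaling, 1 with the mean of all probes, 1 with no variance trend, 0 within vehicle titles, 0 within DEX titles and 0 to 2 with each array left out. The replicate block, with replicate number as a term, gave 30 there. With an array left out as well it gave 22, 23, 23, 24, 26, 26, 27 and 27 over the 8 arrays. The only other comparison with calls rerun with this block was the DHT title, whose count moved by less than 1.5 times, to 27. The block was not an alternative for replicate 2 against replicate 1, which always holds that term, or for the title by replicate interactions. The siFoxA1 title by replicate interaction in the DEX set (2) gave 1 with no detection filter, 0 with no variance trend and 0 to 3 with each array left out. Replicate 2 against replicate 1 in the DEX set (32) gave 29 to 31 with each array left out. Of 61 single-gene results 58 kept their sign under all alternatives run. The exceptions were ORC6 by DEX title (-0.11 within parental titles), E2F1 in the DEX interaction (-0.03 with the replicate block and without the DEX parental replicate 1 array) and PCNA in the DHT-set hormone by siFoxA1 interaction (-0.23 with the mean of probes). The cause was not tested, beyond fewer arrays or genes where a setting leaves them out. Genes near background limit what can be seen, as bounds show.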
